A study of Triticum aestivum with 12 samples.

Results

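The genes described here are 139 of the 99386 gene identifiers of bread wheat (Triticum aestivum) that drought raised in leaves sprayed with water and raised further in leaves sprayed with LRM, a biostimulant made from microalgae. They were chosen by measured values. A gene needed a mean of at least 5 CPM (counts scaled to the total of the library) over the 12 libraries, a level above 1 CPM in at least 1 irrigated library, a log2 ratio of drought to full irrigation of at least 1 with water spray (called W), and a log2 ratio with LRM spray (called L) that was larger than W by at least 1. To each group mean, 0.5 CPM was added before the ratio was taken. The 2 conditions on level left 18216 genes, 177 of these had a W of at least 1, and 139 of the 177 also met the condition on L - W. W, L and L - W chose the members, so all differences between the 4 groups are given as a description, and none of them is supported by a test. Counts of members called in tests over all genes are printed beside the share of all genes called, and nothing is read from them.

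Messenger RNA came from leaves of wild-type plants of the variety Chinese Spring L42, in 4 groups of 3 libraries. Plants of the groups irrigated_water and irrigated_LRM received 180 ml at each of 2 waterings a week, and those of drought_water and drought_LRM received 30 ml, in pots with a retention volume of 180 ml. The groups irrigated_LRM and drought_LRM were sprayed on the foliage with LRM at 0.5%, and the other groups with water, a day after planting and then at intervals of 14 days. The labels do not say whether the libraries of a group came from separate plants, and any p-value behind a call measures only the spread between these samples, which may be technical. Total counts ran from 17541561 in drought_LRM 2 to 47305447 in drought_water 3.

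When soil dries, leaves close their stomata, build up abscisic acid and switch on genes for protective proteins, compatible solutes, the removal of reactive oxygen and the control of the response itself. Bread wheat carries the subgenomes A, B and D, so most of its genes exist as a set of near-identical copies on chromosomes of the same number. Each identifier carries its chromosome arm and no gene name, and a RefSeq gene table held 0 of the 99386. The roles of the members and leaf marker genes could therefore not be looked up, and the members are described by identifier, arm and behaviour. Reads of a copy on another subgenome may be counted with a named member, which makes each one uncertain in that respect.

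Together the members held a small part of the leaf RNA in irrigated plants and the largest part in droughted plants sprayed with LRM. Their share of all counts was 0.119% ± 0.0134 (SD, n = 3) in irrigated_water, 0.109% ± 0.00319 in irrigated_LRM, 0.393% ± 0.186 in drought_water and 1.22% ± 0.0619 in drought_LRM. By library the share was 0.581%, 0.389% and 0.210% in drought_water 1, 2 and 3, and 1.29%, 1.21% and 1.16% in drought_LRM 1, 2 and 3. The drought_water libraries thus lay far apart, and all of them lay between the irrigated and the drought_LRM libraries. In leaves as a whole, more RNA per cell and more cells of a type that expresses a gene cannot be told apart.

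**Figure D1:**
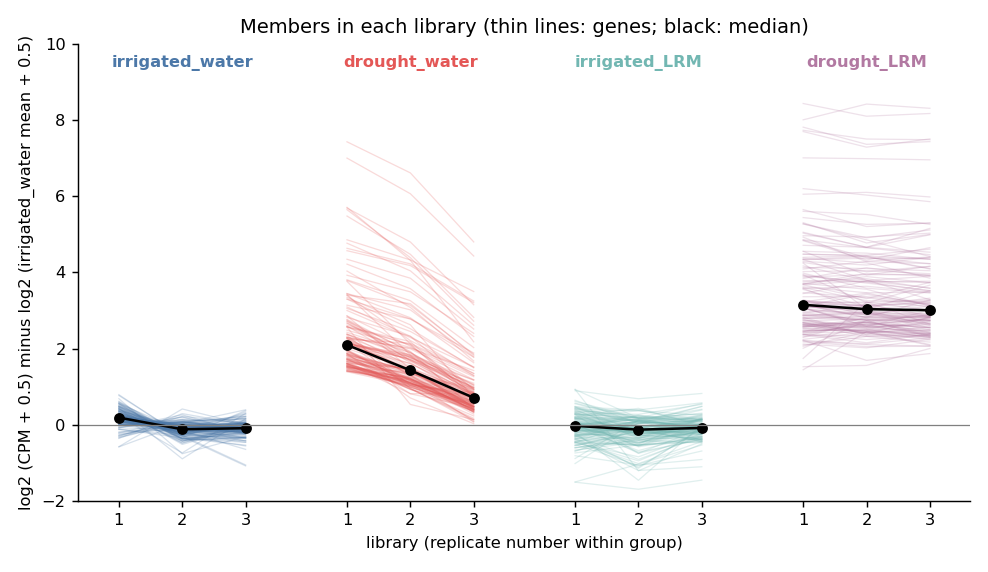
The log2 level of each of the 139 members in each library, relative to its irrigated_water mean; thin lines join the values of a gene within a group, and black points are medians over the members. The medians are 2.09, 1.43 and 0.71 in drought_water 1, 2 and 3, against 3.15, 3.03 and 3.01 in drought_LRM 1, 2 and 3.

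With water spray the members rose by a median of 2.98-fold under drought, from 2.04-fold to 184-fold. With LRM spray the median rise was 10.4-fold, from 4.50-fold to 1167-fold. Fold rises here and below are ratios of group means without the added 0.5 CPM, so they exceed those that W and L imply. The largest, in Traes_3B_6A3604BF5, divides by a mean of 0.28 CPM in irrigated_LRM. The median of W was 1.49 and that of L was 3.15, against 0.03 and 0.13 over the 18216 genes of the same level. L - W had a median of 1.61 and reached 3.33, and it was at least 2 in 36 members. Measured in CPM, the rise with water was between 8.50% and 61.4% of the rise with LRM, with a median of 24.6%. Across the 139 members W and L had a Pearson r of 0.94 (Spearman 0.88). This is a description across genes that share the same 12 libraries, and the thresholds of the rule restrict it.

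**Figure D2:**
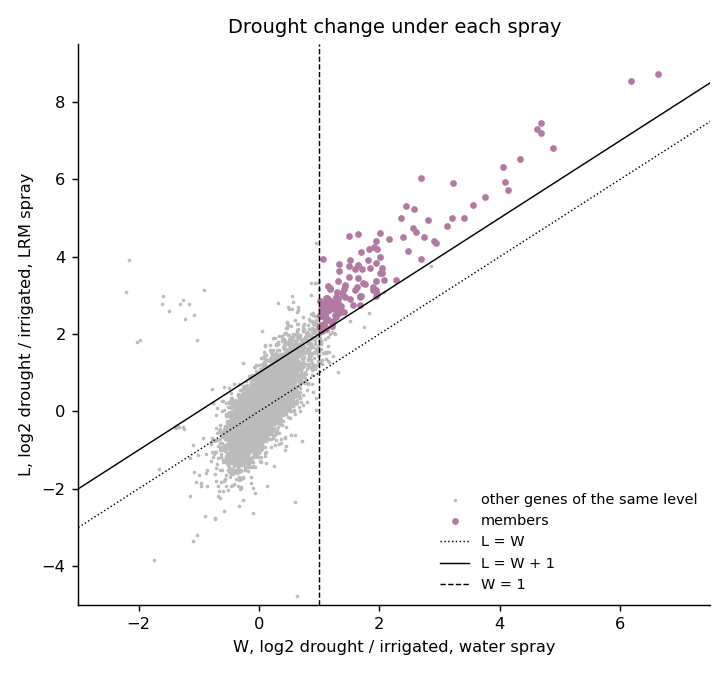
W (drought over full irrigation with water, log2) against L (the same with LRM, log2) for the 18216 genes of the same level, with the 139 members in purple and the thresholds of the rule as lines. The members lie above the line L = W + 1, as the rule requires, from a W of 1.01 to one of 6.64.

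Near the thresholds the members passed without a gap to other genes. Traes_1AL_657856E06 and Traes_4DL_E5521D4C1 had the smallest W among the members, 1.01 each, while Traes_2AS_D3B877D1C and Traes_6BL_BCFC4A7F8 missed it at 0.99 each with an L - W of 2.38 and 2.18. For L - W the members nearest to the threshold were Traes_4AS_E2E0BF011 (1.002) and Traes_6AL_04E62B183 (1.03), and outside it lay Traes_7BS_27D0E28C7 (0.998) and Traes_1AL_A48A8840C (0.98). For the mean level the nearest members were Traes_3AS_5C7F2C739 (5.08 CPM) and Traes_4DL_E5521D4C1 (5.16 CPM), with Traes_6DL_878B1A04B (4.94 CPM) and Traes_5DS_382F5FE0F (4.75 CPM) outside.

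The member with the highest level per gene length under drought with LRM was Traes_4DL_D7C83DB52, at 465 ± 81.0 FPKM (SD, n = 3). In CPM it stood at 1.35, 1.75 and 1.26 in irrigated_water 1, 2 and 3, at 86.7, 42.9 and 13.3 in drought_water, at 1.87, 1.72 and 1.87 in irrigated_LRM and at 439, 321 and 338 in drought_LRM. Neither the irrigated groups and drought_water nor drought_water and drought_LRM overlapped. Traes_4BL_00AAC9279 followed with 378 ± 53.2 FPKM. Its CPM values were 1.44, 1.68 and 1.32 in irrigated_water, 98.8, 40.9 and 12.5 in drought_water, 2.59, 1.53 and 1.77 in irrigated_LRM and 411, 309 and 360 in drought_LRM. These members of arms 4DL and 4BL rose 201-fold and 183-fold with LRM and 32.8-fold and 34.3-fold with water. Over the 12 libraries Traes_4BL_00AAC9279 was the gene most like Traes_4DL_D7C83DB52 among the 18216 genes, with a Pearson r of 0.999 in log2(CPM + 0.5). The next were Traes_3B_8D0DE07D31, a member, and Traes_6DL_94F1C2137, which is none (r of 0.997 each). Traes_6DL_94F1C2137 had a W of 1.2499 and an L - W of 0.78, so that a nearly equal profile came with a smaller size of change. The next highest level, 249 ± 18.1 FPKM, was that of Traes_2DL_BF9338421. The gene length that its counts and FPKM imply, 209 bases, was the shortest of all members, and its mean of 52.2 CPM in drought_LRM was close to the members' median of 46.4.

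The steepest rises belonged to genes that were almost silent in irrigated leaves. Traes_3B_6A3604BF5 had 1.13, 0.381 and 0.235 CPM in irrigated_water and 0.35, 0.00 and 0.50 in irrigated_LRM. Under drought it had 186, 106 and 29.7 CPM in drought_water 1, 2 and 3 and 278, 371 and 343.4 CPM in the drought_LRM libraries. Its W of 6.64 and L of 8.72 were the largest of all members. Traes_2BS_E9B276FE4 went from 1.01 to 108 CPM with water and from 0.74 to 457 CPM with LRM on average. For Traes_2AS_96D993ED0 the same means were 0.61 and 32.3 CPM with water and 0.75 and 141 CPM with LRM. In each of the last pair the lowest drought_LRM library lay above the highest drought_water library.

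L - W was largest in Traes_2BS_B296754F9, at 3.33 (SE 0.93 from the spread of the libraries). Its CPM values were 1.44, 1.66 and 2.32 in irrigated_water, 30.8, 9.54 and 3.09 in drought_water, 1.76, 2.04 and 1.63 in irrigated_LRM and 169, 150 and 133 in drought_LRM. The irrigated groups overlapped and the drought groups did not. Without drought_water 1 the same gene had an L - W of 4.47, and the lowest value without any other single library was 2.87. Traes_7DS_E373FDD65 followed with 3.04 (SE 1.02), from drought_water values of 8.90, 1.80 and 1.247 CPM and drought_LRM values of 29.6, 12.5 and 17.8 CPM. It was the member whose drought_water 2 library lay within the range of irrigated_water (2.205, 0.81 and 0.26 CPM). Traes_6DL_97E0EF6C6 came next, with an L - W of 2.95 (SE 0.66).

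By irrigated level, the 42 members under 2 CPM in irrigated_water had a median L - W of 2.06 and a median L of 4.31. In the 45 members from 2 to 5 CPM the median L - W was 1.58, in the 37 members from 5 to 20 CPM it was 1.501, and in the 15 members of at least 20 CPM it was 1.60. These values follow in part from the rule: a gene with a low irrigated level reached a mean of 5 CPM only through its drought libraries, and the irrigated level is the denominator of W. No relation between level and change is read from them. The 0.5 CPM added to each mean makes ratios of the lowest genes smaller.

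The members shared an order of the drought_water libraries, which entered the rule only through their mean. A gene can reach the threshold on W through its highest drought_water library, so order and spread are not independent of the choice. In 139 of 139 members drought_water 1 was the highest, drought_water 2 the middle and drought_water 3 the lowest library of the group, against 28.0% of the 18216 genes of the same level. Of the 38 genes with a W of at least 1 and an L - W below 1, 34 had this order, as did 652 of the 766 genes with an L of at least 1 and a W below 1, so it was not limited to the members. The highest drought_water library stood above the lowest by a median of 2.56-fold and by up to 12.5-fold. Drought_water 1 stood above drought_water 3 by at least 2-fold in 121 members (87.1%), against 1.39% of the genes of the same level. The same held in 12 of the 38 genes (31.6%) and in 100 of the 766 (13.1%), so a wide spread was not limited to the members either. With 0.5 CPM added, this ratio had a median of 2.49 in drought_water, 1.22 in drought_LRM, 1.34 in irrigated_water and 1.29 in irrigated_LRM. Over all 18216 genes the medians of these groups were 1.19, 1.24, 1.26 and 1.18. In irrigated_water library 1 was the highest in 102 members (73.4%), near the 72.8% of all genes of the level.

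Traes_3B_8D0DE07D31 and Traes_2BS_B296754F9 had the widest spread in drought_water. Traes_3B_8D0DE07D31 stood at 70.3, 26.6 and 5.62 CPM there and at 288, 245 and 242 CPM in drought_LRM. The narrowest were Traes_2AL_538DC10D0, at 65.5, 55.8 and 42.9 CPM, and Traes_2DL_BF9338421, at 25.9, 20.1 and 16.5 CPM. Even in these 2 members the drought_water libraries kept the same order, and their drought_LRM libraries lay at 121 to 150 CPM and at 47.9 to 55.0 CPM.

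On the log2 scale from the irrigated_water mean (0) to the drought_LRM mean (1), drought_water 1, 2 and 3 had median positions of 0.67, 0.48 and 0.22 over the members. Set against drought_water 1 alone, L - W was above 0 in 139 members and at least 1 in 85. Against drought_water 2 alone it was at least 1 in 134, and against drought_water 3 alone in 139. W was at least 1 in 139 members by drought_water 1, in 125 by drought_water 2 and in 37 by drought_water 3. In 14 members drought_water 3 did not exceed the highest irrigated_water library. The rule applied to all genes without drought_water 1 gave 86 genes, 81 of them members, against 126 to 147 genes without any other single library.

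The size of the change with LRM also ran through the single drought_water libraries. Across the 139 members the log2 ratio of drought_water 1 to the irrigated_water mean had a Pearson r of 0.96 with L, and that of drought_water 2 and 3 had an r of 0.89 and 0.82. These values rest on different libraries on each axis, but the members were chosen on both, and each is given as a description.

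To see the difference between sprays in libraries that did not choose the genes, the rule was applied without the 4 libraries of a replicate number and the genes so chosen were measured in those 4. The numbers are not known to link libraries of different groups. Libraries of a group may be technical repeats, so those left out are not shown to be independent of those that chose. Each held-out value rests on 1 library a group. The chosen genes, most of them members, share these libraries, so counts of genes are not independent observations. All genes of the level, given beside them, were not chosen for a drought rise. Without the libraries numbered 1 the rule chose 85 genes, and in the libraries numbered 1 L - W was above 0 in all 85 and at least 1 in 64 (75.3%), with a median of 1.27. Without those numbered 2 it chose 141 genes, of which 127 (90.1%) had a held-out L - W of at least 1, with a median of 1.60. Without those numbered 3 it chose 144, of which 142 (98.6%) did, with a median of 2.25. Among all genes of the level, 2.07%, 2.74% and 4.93% had an L - W of at least 1 in these libraries, and the medians were 0.13, -0.02 and 0.16. L - W was above 0 in 64.2%, 47.6% and 64.8% of the genes of the level. The held-out W was less even: it was at least 1 in 83 of 85, 122 of 141 and 41 of 144 genes, with medians of 2.16, 1.66 and 0.72. Over all genes of the level the medians of W in these libraries were -0.08, 0.14 and 0.05.

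L - W equals the log2 ratio of LRM to water under drought minus the same ratio under full irrigation. In 126 of the 139 members the ratio under drought alone reached 1, with a median of 1.52 and a range from 0.65 to 3.34. Under full irrigation its median was -0.10, and it lay within 0.5 of 0 in 130 members. It was at or below -0.5 in 8 members and at or above 0.5 in 1. Every irrigated_LRM library lay below every irrigated_water library in 14 members (10.1%), beside 8.99% of the genes of the level, and above in 8 members (5.76%), beside 7.36%.

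**Figure D3:**
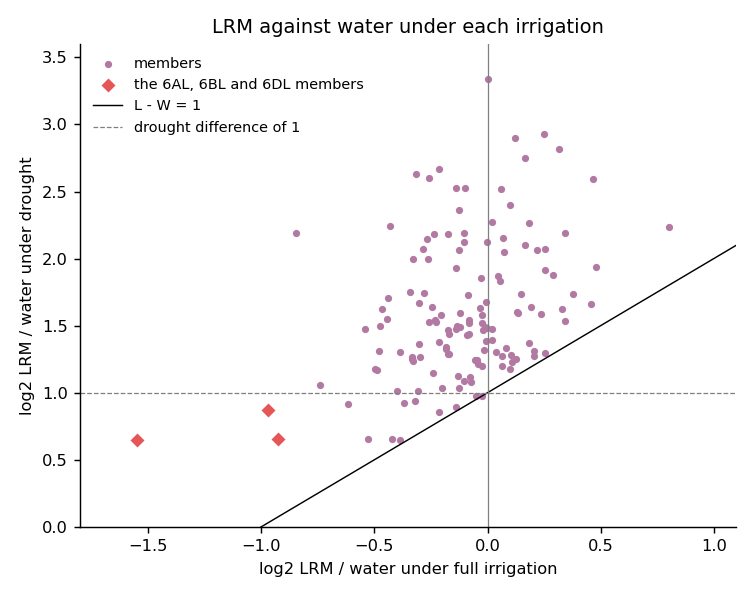
The log2 ratio of LRM to water under full irrigation against that under drought for the 139 members; the solid line marks an L - W of 1 and red diamonds mark Traes_6AL_2B4A305CD, Traes_6BL_005314A5D and Traes_6DL_20A343A96. Most members lie near 0 on the horizontal axis, and the diamonds lie, in that order, at -0.97, -0.93 and -1.55.

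The lowest ratios under full irrigation belonged to Traes_6DL_20A343A96 (-1.55) and Traes_6AL_2B4A305CD (-0.97), followed by Traes_6BL_005314A5D (-0.93), which was added to them after its values were seen. Traes_6DL_20A343A96 had 4.195, 1.37 and 3.38 CPM in irrigated_water and 0.72, 0.57 and 0.77 in irrigated_LRM, with no overlap. Under drought it had 100.3, 69.3 and 38.8 CPM with water and 108, 106 and 113 CPM with LRM, so that drought_water 1 came close to the drought_LRM libraries. Traes_6BL_005314A5D had 3.001, 1.48 and 1.73 CPM in irrigated_water, 0.96, 0.73 and 0.86 in irrigated_LRM, 63.3, 47.5 and 23.9 in drought_water and 66.9, 64.5 and 81.1 in drought_LRM. For Traes_6AL_2B4A305CD the irrigated values overlapped, with 1.78, 0.34 and 0.65 CPM with water and 0.00, 0.19 and 0.48 with LRM. Under drought it had 33.2, 25.2 and 12.6 CPM with water and 45.9, 35.4 and 50.1 with LRM. The log2 ratio of LRM to water under drought was 0.65, 0.65 and 0.87 for 6DL, 6BL and 6AL, beside an L - W of 2.197, 1.58 and 1.85. With all libraries the larger part of L - W lay in the irrigated groups in each of the 3, at levels of a few CPM or less. In all 3 members irrigated_water 1 was the highest library of its group. Without it L - W was 1.92 in Traes_6DL_20A343A96 and 1.33 in Traes_6AL_2B4A305CD, while their ratios under drought stayed at 0.65 and 0.87. For the 6AL member the larger part then lay under drought, so its part in the irrigated groups rests on that library. For Traes_6BL_005314A5D the value without irrigated_water 1 is not given, so the statement is not secured there. At the other end Traes_3B_8B604D9E0 had a ratio of 0.80 under full irrigation, from 2.14, 1.099 and 1.20 CPM with water and 3.18, 2.68 and 2.998 with LRM, and Traes_4DL_E5521D4C1 had a ratio of 0.48.

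Members lay on all 7 chromosome groups and on all subgenomes. Subgenomes A, B and D held 47, 50 and 42 of them (33.8%, 36.0% and 30.2%), beside 32.3%, 35.3% and 32.4% of the genes of the level. The 95% Wilson interval of the share of D ran from 23.2% to 38.3%. It takes the members as independent draws, but they were chosen from the same 12 libraries and may include copies of a gene. Chromosome group 2 held 31 members (22.3%, beside 17.1%) and group 3 held 27 (19.4%, beside 14.1%). Groups 4 and 6 held 9 each (6.47%), beside 14.9% and 11.9%. All 9 members of group 6 were on long arms. So were all 9 genes of group 6 among the 38 with a W of at least 1 and an L - W below 1. Of the 2160 genes of the level in group 6, most were on long arms too, with 455 on 6AL, 363 on 6BL and 509 on 6DL. A difference from this share was not tested. Arms 3DS, 4BS, 4DS, 6AS, 6BS and 6DS held no members. In the same order they held 1.09%, 2.21%, 1.95%, 1.93%, 1.24% and 1.41% of the genes of the level. Gene lengths implied by counts and FPKM had a median of 1927 bases in members and 1914 in the genes of the level.

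Same-numbered arms of A, B and D held members together for 11 of the 13 arm numbers with any member. Arm number 6S held none, and the 13 members on 3B were counted for both 3L and 3S. The same count is not given for other genes of the level, so nothing is read from it. All pairs of members were alike over the 12 libraries, with a median Pearson r of 0.97 and a lowest of 0.77. A high correlation therefore does not by itself single out copies of a gene. The rule asks each member to rise under drought with both sprays, more with LRM, so this likeness follows in part from the choice. The 2 sets of 3 with the highest pairwise correlations were on arms 5L and 1S. Whether the members of a set are copies of a single gene was not tested, as no sequence was used here.

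**Figure D4:**
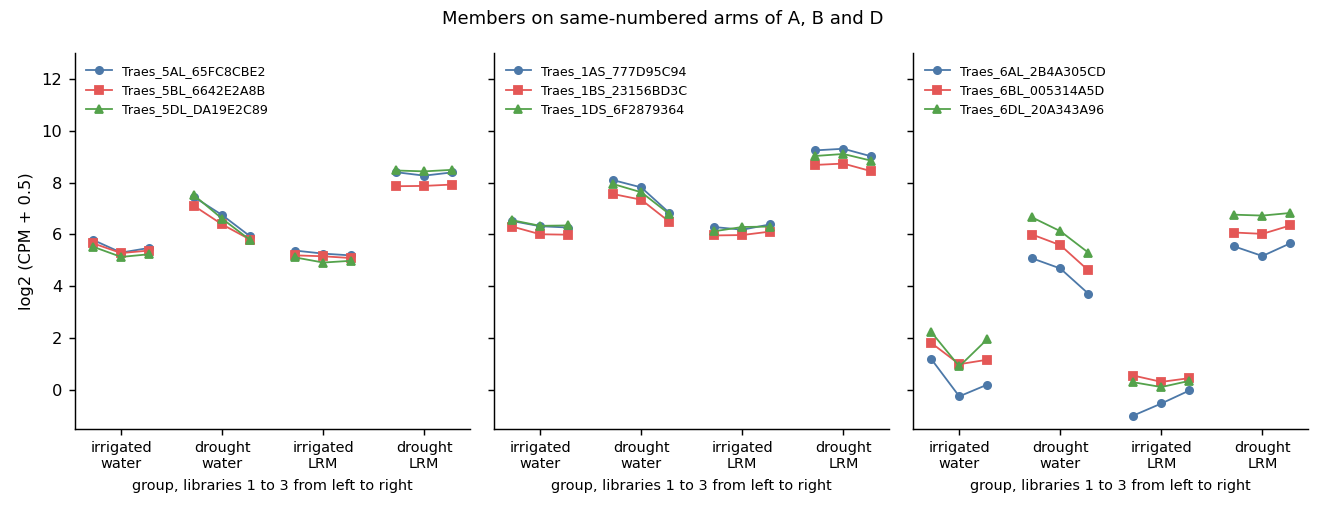
log2(CPM + 0.5) in each library for the sets on 5L, 1S and 6L, with a colour per gene; lines join libraries 1 to 3 within a group. The sets on 5L and 1S run nearly parallel, and the set on 6L has lower means in irrigated_LRM than in irrigated_water, with libraries that overlap for Traes_6AL_2B4A305CD.

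On 5L the set was Traes_5AL_65FC8CBE2, Traes_5BL_6642E2A8B and Traes_5DL_DA19E2C89, with a lowest pairwise r of 0.999. Traes_5DL_DA19E2C89 had 45.5, 34.5 and 37.2 CPM in irrigated_water, 182, 97.0 and 54.5 in drought_water, 34.1, 29.6 and 31.1 in irrigated_LRM and 354, 346 and 361 in drought_LRM. The groups under drought did not overlap each other or the irrigated groups. Traes_5AL_65FC8CBE2 had means of 45.9, 114, 38.3 and 328 CPM in irrigated_water, drought_water, irrigated_LRM and drought_LRM. In the same order Traes_5BL_6642E2A8B had 43.1, 91.7, 34.9 and 237 CPM. L - W was 1.79, 1.67 and 1.97 in the A, B and D members.

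On 1S the set was Traes_1AS_777D95C94, Traes_1BS_23156BD3C and Traes_1DS_6F2879364, the members with the highest CPM in irrigated leaves, with a lowest pairwise r of 0.998. Traes_1AS_777D95C94 had 91.1, 79.2 and 76.5 CPM in irrigated_water, 274, 225 and 114 in drought_water, 77.5, 72.2 and 83.3 in irrigated_LRM and 608, 635 and 517 in drought_LRM. Its drought groups did not overlap, while the irrigated groups did. Mean drought_LRM levels were 395 CPM for Traes_1BS_23156BD3C and 512 CPM for Traes_1DS_6F2879364, and L - W was 1.60, 1.52 and 1.64 in the A, B and D members.

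All 139 members were among the 57226 genes tested by the quasi-likelihood test of edgeR at an adjusted p below 0.05. For drought with water 123 members were called higher, beside 0.744% of all tested genes, and for drought with LRM 139 were, beside 8.65%. For LRM against water under drought 129 were called higher, beside 4.26%, and for the interaction, the difference of the drought responses, 40 were, beside 0.467%. These contrasts chose the members, and nothing is read from the counts. Every drought_LRM library lay above every drought_water library in 138 members, beside 26.3% of the genes of the level. The exception was Traes_2AL_3742E5342, with 23.6 CPM in drought_water 1 and 22.2 in the lowest drought_LRM library. Every drought_water library lay above every irrigated_water library in 125 members, beside 10.3%, and every drought_LRM library above every irrigated_LRM library in 139, beside 32.7%. Under full irrigation edgeR called 0 members for LRM against water, beside 0% of tested genes. In the same test 10 members had an unadjusted p below 0.05. The share of all genes at that level is not given, so nothing is read from the 10. DESeq2 called 2 of the 124 members it tested there, both lower with LRM, beside 1.63% of all genes it tested, and limma called 0.

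The 40 members called for the interaction had a median L - W of 1.73 and a median level of 35.1 CPM over all libraries, and the 99 others had medians of 1.52 and 13.2 CPM. Of the 36 members with an L - W of at least 2, 13 were among the 40. With all libraries the interaction was called in either direction in 0.851% of all tested genes, and this share moved with the library left out. Leaving out irrigated_water 1, 2 or 3 gave 12, 1 and 5 members, beside 0.287%, 0.0342% and 0.307% of all genes. Leaving out drought_water 1, 2 or 3 gave 124, 0 and 44 members, beside 2.19%, 0.0428% and 0.33%. The counts were 0, 0 and 1 for irrigated_LRM 1, 2 and 3, beside 0.0629%, 0.051% and 0.162%. They were 9, 4 and 25 for drought_LRM 1, 2 and 3, beside 0.384%, 0.23% and 0.55%. At an unadjusted p below 0.05, edgeR had 136 members with all libraries and 130, 133 and 130 in the omissions that left 0 calls. The share of all genes at that unadjusted level is not given. The interaction chose the members, so nothing is read from these counts. For drought with water the 123 calls became 66, 49 and 57 when irrigated_water 1, 2 or 3 was omitted, and 68 and 67 on omission of drought_water 1 or 2. The share of all genes called in either direction went from 0.83% to 0.371%, 0.185%, 0.243%, 0.258% and 0.281% in the same omissions.

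**Figure D5:**
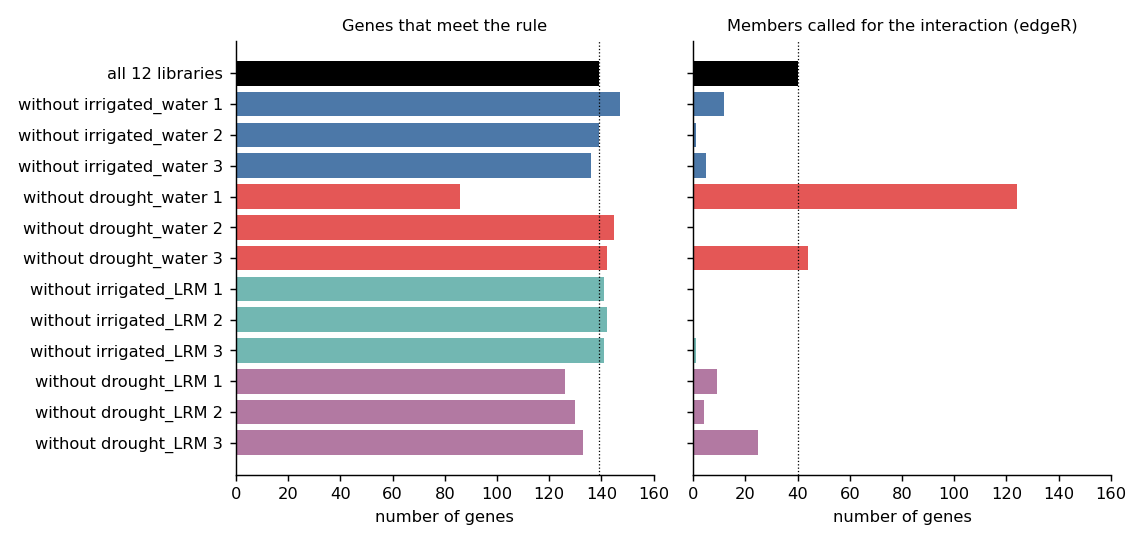
Number of genes that meet the rule (left) and number of the 139 members called for the interaction by edgeR (right), with all 12 libraries and without each library in turn. Without drought_water 1 the rule is met by 86 genes and the interaction calls 124 members, against 139 and 40 with all libraries.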

How the data were processed

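The authors deposited a table of whole-number read counts per gene identifier and a second table whose unit no header names. The deposited numbers in it behave as FPKM: of 555204 cells with more than 20 counts, 99.8% lay within 5% of the value computed from count, total and 1 fixed length per gene. In it, 205 whole-number cells at about 1000 times the implied value were divided by 1000 (1 cell of a member). Per the submitters' processing notes FastQC, HISAT2, StringTie and DESeq2 were used; no version, build, annotation or strand setting was stated in the sources.

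CPM was computed from column totals, without scaling factors. Tests used edgeR 4.0.16 in R 4.3.3 (glmQLFit, TMM, filterByExpr), all 12 libraries in a single fit of 4 group means, with Benjamini-Hochberg adjustment over 57226 genes. Alternatives were library totals, no filter, DESeq2 1.42.0, limma 3.58.1 on log2(FPKM + 1) for genes with a mean FPKM of at least 0.5, a replicate block, and omission of each library. The SE of L - W combines the variances of log2(CPM + 0.5) within the groups. The edgeR fit was tested on simulated data with 200 changed genes, picked at random above 1 CPM, among 57226 genes. For drought with water 70% of 2-fold changes and 96% of 4-fold changes were called (7 of 173 calls false). For the interaction 23% and 90% were (11 of 124 false), with the change in drought_LRM alone and no drought rise with water. The members spread more widely in drought_water than the genes of the level did, so these rates need not hold for them.

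The members, and the rule for naming them (extremes of FPKM, W, L - W, the irrigated ratio and the drought_water spread, genes next to each threshold, sets on A, B and D, and the genes most like the first), were chosen with earlier results of these data known. A set on A, B and D was ranked by its lowest pairwise correlation, and 3B, which carries no arm letter, was allowed on either arm. Reads that match several copies may be split or shared, and counts at the lowest levels are the least precise.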

Additional observations from a re-analysis of the deposited data

Results flagged for a closer look

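The interaction test of edgeR called 40 members. The members were chosen for this difference between the drought responses, so the calls describe the choice and support nothing. Of the members named in the text, 10 were among the 40. Their fitted interactions on the log2 scale were 3.05 in Traes_6DL_97E0EF6C6, 2.59 in Traes_6DL_20A343A96, 1.63 in Traes_2DL_BF9338421 and 1.43 in Traes_2AL_538DC10D0. In the set on 5L they were 1.68 (Traes_5AL_65FC8CBE2), 1.56 (Traes_5BL_6642E2A8B) and 1.86 (Traes_5DL_DA19E2C89). In the set on 1S they were 1.498 (Traes_1AS_777D95C94), 1.41 (Traes_1BS_23156BD3C) and 1.53 (Traes_1DS_6F2879364). Each was positive, with L above W.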

How the results depend on the processing

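Of the values of L - W of the 25 named members under 19 alternatives each, none changed sign, 425 moved by less than the spread between libraries and 50 by more. Of these 50, 25 arose with drought_water 3 as the only drought_water library, 17 with drought_water 1 as the only one and 7 without drought_water 1. Under the alternatives 23 values fell below the threshold of 1, 11 of them on omission of a single library. The members were chosen with an L - W of at least 1, so nothing is read from the kept sign. The number of genes that met the rule was 52 with thresholds of 1.5 and 476 with thresholds of 0.5, ran from 86 to 147 when single libraries were left out, and was 39 with drought_water 3 as the only drought_water library, an alternative chosen after the data were seen. With TMM-scaled CPM it was 123 (121 of them members) and on FPKM 115 (89 members). Members called for drought with water numbered 62 by limma and 49 to 136 without single libraries, where 0.428% and 0.185% to 1.66% of all genes were called (0.83% as reported). Members called for the interaction numbered 102 by DESeq2, 80 by limma and 0 to 124 without single libraries. Of all genes, 4.5%, 1.73% and 0.0342% to 2.19% were called there (0.851% as reported), so the number moved over all genes too; the cause was not tested, though each omission also leaves fewer samples. For LRM under full irrigation DESeq2 called 2 of 124 members tested, both lower with LRM, beside 1.63% of all genes. Correlations of deviations between libraries of the same number ran from -0.12 to 0.15, with a median of 0.01. Between libraries of different numbers they ran from -0.23 to 0.16, with a median of -0.004. These values do not settle whether equal numbers link libraries. With the number as a replicate block the interaction called 75 members (1.42% of all genes). Drought with water called 120, drought with LRM 139, LRM under drought 132 and LRM under full irrigation 0. Shares of all genes are not given for the contrasts other than the interaction, and nothing is read from these counts. All 139 members stayed called for drought with LRM under every alternative run, and drought_water 1 stayed highest in all 139 with TMM-scaled CPM. With 3 libraries a group, the spread of the drought_water libraries limits what can be said of W.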
